A study of Mus musculus with 6 samples.

Results

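*Wdfy1* and 9 genes of Toll-like receptor signalling were followed in injured Achilles tendon: the receptors *Tlr2*, *Tlr3*, *Tlr4*, *Tlr7* and *Tlr9*, the co-receptor *Cd14*, and the adaptors *Myd88*, *Ticam1* and *Ticam2*. *Wdfy1* was chosen by its measured level, which was higher in every Cre-carrying library, so its difference between the groups is given as a description with no test. The others were named for their place in the pathway, but with earlier results of these data known. All 10 genes passed the filter on low counts, which kept 14261 of the 18099 genes in the table.

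RNA was sequenced from the repair tissue of neonatal mice 7 days after transection of the Achilles tendon, with 3 control libraries and 3 Lysm-Cre; Ampkα1fl/fl libraries, 1 mouse each. Controls were littermates, Ampkα1fl/fl without Cre by the study's methods, so both groups carried floxed alleles of *Prkaa1*, the gene of AMPKα1. Cre was driven by *Lyz2*, the lysozyme M locus of myeloid cells, and the RNA came from whole tissue, not from sorted myeloid cells. The strain background of the crossed mice beyond C57 was not given in the sources used here. In such bulk tissue, fewer cells of a type and less RNA per cell cannot be told apart.

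Toll-like receptors detect microbial products and molecules from damaged tissue. Those at the cell surface, such as TLR2 and TLR4, bind lipids, lipoproteins and matrix fragments, whereas TLR3, TLR7 and TLR9 read nucleic acids in endosomes. Most signal through MYD88 to NF-κB, whereas TLR3 and TLR4 also signal through TRIF (the product of *Ticam1*) to IRF3 and interferon genes, TLR4 with the help of TRAM (the product of *Ticam2*). WDFY1 is an endosomal protein with WD40 repeats and a FYVE domain that is known to recruit TRIF to TLR3 and TLR4.

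Libraries held between 18076804 and 19479887 reads assigned to genes. *Lyz2* fell from 7378, 7778 and 7372 reads in control replicates 1 to 3 to 9, 15 and 8 reads in the Lysm-Cre; Ampkα1fl/fl libraries (log2 fold change −9.46, SE 0.17, edgeR adjusted p = 3.41e-06), so every library matched its Cre label. *Lyz2* RNA was thus almost absent from the Cre-carrying libraries. Its loss and that of myeloid AMPKα1 cannot be told apart in any comparison of the groups, and the part of *Lyz2* was not tested. *Prkaa1* held 740, 688 and 690 reads against 626, 751 and 652 (log2 fold change −0.08, SE 0.09, edgeR adjusted p = 0.744). The groups overlapped, and whole-gene counts from whole tissue do not separate the floxed exon or the myeloid cells. Tendon markers *Scx*, *Tnmd* and *Col1a1* were abundant in every library. The summed level of 10 skeletal muscle markers, by contrast, lay between 187.5 and 3279 CPM (counts scaled to library size) in controls and between 1083 and 9586 CPM in the Lysm-Cre; Ampkα1fl/fl libraries.

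*Wdfy1* lies on the minus strand of chromosome 1 in GRCm38 (chr1:79702262-79776143), and its GENCODE vM21 models raise a point that bears on how its reads can be assigned. Exons 4, 5 and 6, of 55, 151 and 113 bases and wholly coding, occur as 2 copies offset by 7442 bases. The model Wdfy1-204 uses the copy at chr1:79724645-79729710 and Wdfy1-205 the copy at chr1:79717203-79722268. Both models have 12 exons and 4551 bases. The 319 bases of the 3 exons were compared between the copies and had 0 mismatches. The other exons lie at the same positions in both models. The spliced sequences of the models are therefore the same, and no spliced read can be assigned to only 1 of them. The 3 exons are printed because they are the stretch present as 2 copies, from 5′ to 3′ in the direction of transcription. Capitals mark the bases present in both copies, and lower case the 20 bases of exon 3 before them and of exon 7 after them, which occur once.
Wdfy1 exon 4: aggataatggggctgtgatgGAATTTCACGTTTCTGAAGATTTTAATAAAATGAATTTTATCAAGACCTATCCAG
Wdfy1 exon 5: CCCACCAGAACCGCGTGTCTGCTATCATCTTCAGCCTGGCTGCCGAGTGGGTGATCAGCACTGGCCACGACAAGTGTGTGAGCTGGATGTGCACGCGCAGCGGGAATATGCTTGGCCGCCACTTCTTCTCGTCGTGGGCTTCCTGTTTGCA
Wdfy1 exon 6: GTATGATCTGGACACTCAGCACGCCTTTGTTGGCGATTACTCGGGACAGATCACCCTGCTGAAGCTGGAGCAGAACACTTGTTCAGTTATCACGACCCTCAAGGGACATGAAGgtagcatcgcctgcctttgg
An arrangement of at least 3 exons of 50 bases or more repeated in order at 1 offset was annotated in 3 of 21866 protein-coding genes (0.0137%). This count used exon positions and lengths only, and sequences were not compared in genes other than *Wdfy1*.

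**Figure D1:**
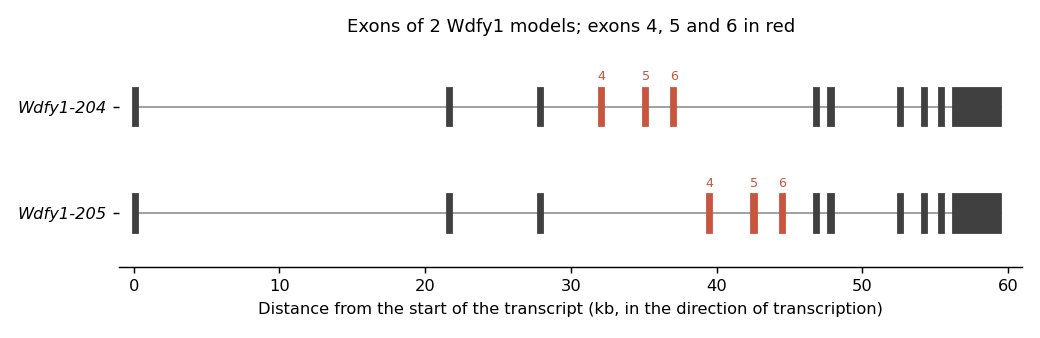
Exons (boxes) of the GENCODE models Wdfy1-204 and Wdfy1-205 by distance from the transcript start in kb, with short exons drawn wider than scale so that they can be seen. The models share 9 of 12 exons and differ in which copy of exons 4, 5 and 6 (red) they use.

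*Wdfy1* was higher in the Lysm-Cre; Ampkα1fl/fl libraries. It held 475, 435 and 464 reads in control replicates 1 to 3 and 1141, 1047 and 997 reads in Lysm-Cre; Ampkα1fl/fl replicates 1 to 3. The lowest Lysm-Cre; Ampkα1fl/fl library held more than any control library, and within each group the libraries lay close together. Scaled for library size, the level was 24.8 ± 0.89 CPM (SD, n = 3) in controls and 56.7 ± 2.81 CPM (SD, n = 3) in Lysm-Cre; Ampkα1fl/fl tissue, a fitted log2 fold change of 1.19 (SE 0.06), or 2.29-fold. For comparison, the groups did not overlap for 8.94% of all genes tested in the higher direction, and 0.33% of genes were called higher by edgeR, but no inference is drawn from this for *Wdfy1*, since the same contrast chose it. Per transcript length, its level was 13.44, 12.11 and 14.88 TPM (a length-scaled level with the same total in every library) in controls and 31.46, 28.33 and 25.26 TPM in Lysm-Cre; Ampkα1fl/fl tissue.

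In the deposited table, the *Wdfy1* reads were split over 5 RefSeq transcript models, 2 curated (NM) and 3 predicted (XM), and this split differed between the groups. The curated model NM_001111279 was assigned 173.68, 216.29 and 270.54 estimated reads in controls and 1115.48, 1032.27 and 975.91 in Lysm-Cre; Ampkα1fl/fl tissue, 4.73 times as many on average. The predicted model XM_006496543 went the other way, with 243.95, 173.86 and 145.97 estimated reads in controls and 0, 7.51 and 16.74 in Lysm-Cre; Ampkα1fl/fl tissue. A further predicted model, XM_017322387, was assigned 39.23, 43.28 and 39.84 estimated reads in controls and 11.63, 4.76 and 2.37 in Lysm-Cre; Ampkα1fl/fl tissue. For each of these 3 models, the groups did not overlap. The other models, NM_027057 and XM_017322386, had at most 16.51 estimated reads in any library.

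As a share of the gene, NM_001111279 held 48.2% ± 11 of the *Wdfy1* reads in controls and 98.1% ± 0.448 in Lysm-Cre; Ampkα1fl/fl tissue (SD, n = 3), whereas XM_006496543 held 40.9% ± 9.98 and 0.799% ± 0.842. Together the curated models took 36.9%, 50.1% and 60% of the reads in control replicates 1 to 3 and 99%, 98.8% and 98.1% in the Lysm-Cre; Ampkα1fl/fl libraries. As background, 10449 of the genes tested had more than 1 transcript. Of these, 44 (0.421%, *Wdfy1* included) had a non-overlapping shift in mean transcript share of at least 49.9 percentage points, the shift of *Wdfy1*. No inference is drawn from this for *Wdfy1*, since the same contrast chose it. Counting the curated models alone gave a log2 fold change of 2.20 for *Wdfy1* in place of 1.19, an alternative chosen after the transcripts were seen. From the ratio of estimated reads to TPM, XM_006496543 had 1.05 times the effective length of NM_001111279. The exon structure of the predicted models was not analysed here, and whether the repeated exons bear on the split was not tested.

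**Figure D2:**
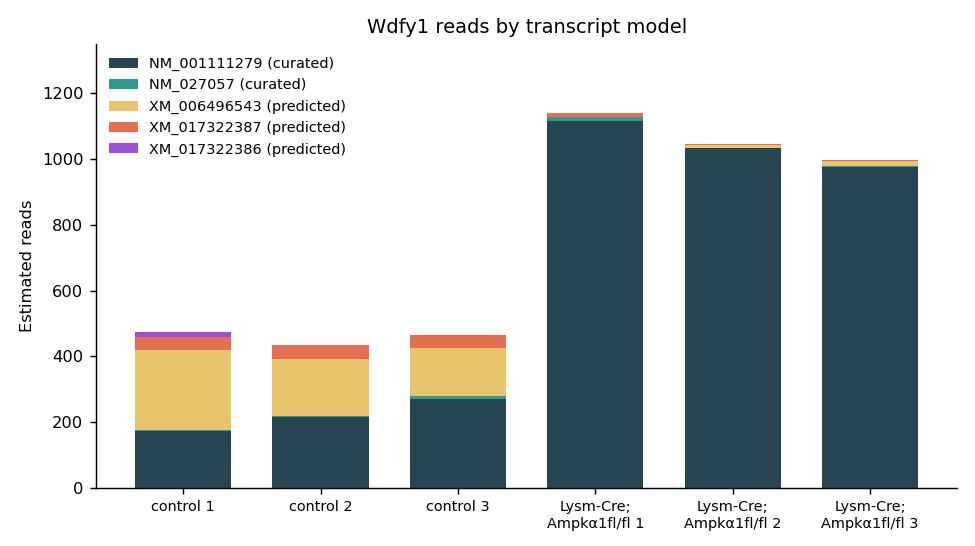
Estimated reads of *Wdfy1* in each library (stacked bars), coloured by RefSeq transcript model. Totals are 435 to 475 in controls and 997 to 1141 in Lysm-Cre; Ampkα1fl/fl tissue, where NM_001111279 takes almost the whole bar.

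Genes that are known to differ between C57BL/6 substrains were set beside these values, since *Wdfy1* models with a repeated exon block come from the C57BL/6J reference assembly. *Nnt*, a mitochondrial transhydrogenase gene that carries a deletion in C57BL/6J mice, had 657, 641 and 649 reads in controls and 960, 1164 and 1157 in Lysm-Cre; Ampkα1fl/fl tissue. The groups did not overlap, and *Nnt* rose by 0.74 on the log2 scale (SE 0.1, edgeR adjusted p = 0.0298). With replicate numbers fitted as a block, the edgeR adjusted p was 0.0552, and leaving out 1 library at a time gave an edgeR adjusted p between 0.021 and 0.163, with the call kept only without Lysm-Cre; Ampkα1fl/fl replicate 1 or 2. *Entpd4*, a lysosomal nucleotidase, had 106, 105 and 53 reads in controls and 53, 53 and 0 in Lysm-Cre; Ampkα1fl/fl tissue (log2 fold change −1.34, SE 0.93, edgeR adjusted p = 0.574). *Ide* (0.10, SE 0.05, edgeR adjusted p = 0.439) and *Cyfip2* (−0.07, SE 0.21, edgeR adjusted p = 0.928) had small fitted log2 differences. *Crb1* had 0 reads in all 6 libraries and *Nlrp12* at most 3 in any. The part of strain background in the *Wdfy1* difference was not tested, and no library's substrain was given in the sources used here.

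The genes beside *Wdfy1* on chromosome 1 were read in the same fit. Of the 10 nearest genes in the table, 5 on each side, 0 were called by edgeR, against 0.898% of all genes tested. Their log2 fold changes ran from −0.74 to 0.37. *Ap1s3*, the nearest on the side of lower coordinates, had few reads (19, 15 and 11 against 13, 9 and 7), with a log2 fold change of −0.65 (SE 0.37, edgeR adjusted p = 0.483). *Mrpl44*, a mitochondrial ribosomal protein gene that borders the start of *Wdfy1* on the other side, had 256, 248 and 217 reads against 220, 236 and 244, with a log2 fold change of −0.06 (SE 0.1, edgeR adjusted p = 0.847). *Kcne4*, chosen after its values were seen, was the only neighbour at an unadjusted p under 0.05, against 14.5% of all genes (log2 fold change 0.37, edgeR adjusted p = 0.153).

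For the other WDFY genes the fitted differences were on the lower side. *Wdfy4*, a gene of antigen cross-presentation in dendritic cells, had 309, 324 and 301 reads in controls and 281, 251 and 196 in Lysm-Cre; Ampkα1fl/fl tissue. The groups did not overlap, but the difference missed the threshold (log2 fold change −0.38, SE 0.13, edgeR adjusted p = 0.245). *Wdfy2* (−0.25, SE 0.16, edgeR adjusted p = 0.526) and *Wdfy3*, an autophagy gene (−0.03, SE 0.06, edgeR adjusted p = 0.875), overlapped between the groups.

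Most of the receptors and adaptors had a fitted difference on the lower side. Of the 9 genes, edgeR called 0, against 0.898% of all genes tested (128 of 14261, 81 of them lower, or 0.568%, and 47 called when replicate numbers were fitted as a block). At an unadjusted p under 0.05 there were 2, *Tlr2* and *Ticam2*, both lower, against 8.55% of all genes in that direction and 14.5% in either. DESeq2 called 1 of them, *Ticam2*, against 3.87% of all genes. In all, 2 had a log2 fold change above 0 and 7 below, with a median of −0.1, while the median of all genes tested was 0 and 49.4% lay above 0. Libraries did not overlap between the groups for 2 of the 9, again *Tlr2* and *Ticam2*, against 20.4% of all genes.

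**Figure D3:**
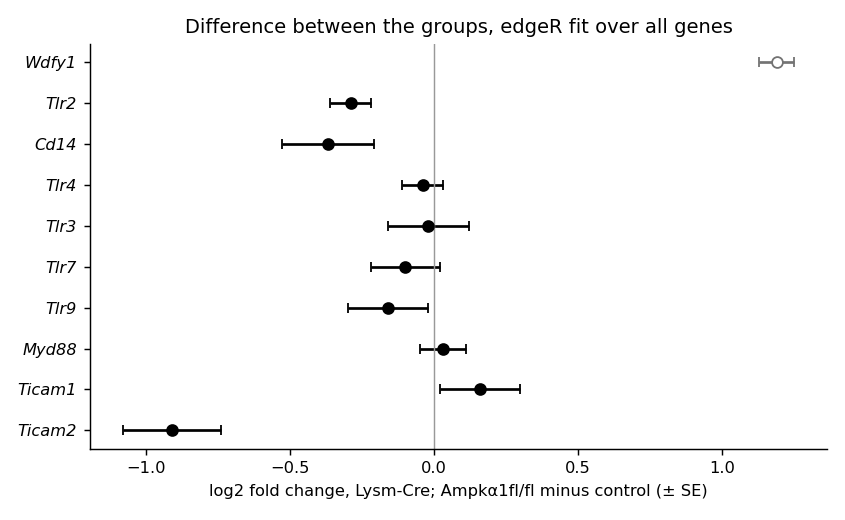
Log2 fold change of each gene, Lysm-Cre; Ampkα1fl/fl minus control, with its standard error (bars) from the edgeR fit over all genes, 3 libraries a group. *Wdfy1* (open symbol, 1.19) was chosen for this difference, while *Ticam2* (−0.91) and *Tlr2* (−0.29) are the genes whose libraries do not overlap on the lower side.

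At the cell surface, *Tlr2*, the receptor for bacterial lipoproteins, had 652, 627 and 647 reads in controls and 588, 497 and 512 in Lysm-Cre; Ampkα1fl/fl tissue. Every Lysm-Cre; Ampkα1fl/fl library was below every control, by a small margin (log2 fold change −0.29, SE 0.07, edgeR adjusted p = 0.128, exact two-sided permutation p = 0.1, the smallest that 3 against 3 libraries allow). *Cd14*, which hands lipopolysaccharide to TLR4, had 263, 293 and 222 reads against 235, 214 and 162. Its groups overlapped, since Lysm-Cre; Ampkα1fl/fl replicate 1 lay above control replicate 3 (log2 fold change −0.37, SE 0.16, edgeR adjusted p = 0.362). *Tlr4*, the receptor for lipopolysaccharide, had 618, 638 and 560 reads against 626, 578 and 584. Its log2 fold change was −0.04 (SE 0.07, 95% interval −0.20 to 0.12, edgeR adjusted p = 0.84), the narrowest interval among the receptors.

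The endosomal receptors overlapped between the groups in every case. *Tlr3*, the sensor of double-stranded RNA, had 225, 195 and 185 reads in controls and 173, 201 and 230 in Lysm-Cre; Ampkα1fl/fl tissue (log2 fold change −0.02, SE 0.14, edgeR adjusted p = 0.973). *Tlr7*, a sensor of single-stranded RNA, had 303, 299 and 325 reads against 352, 274 and 254 (−0.10, SE 0.12, edgeR adjusted p = 0.782). The highest and the lowest *Tlr7* library were both in the Lysm-Cre; Ampkα1fl/fl group. *Tlr9*, the sensor of unmethylated CpG DNA, had 125, 117 and 119 reads against 110, 124 and 93 (−0.16, SE 0.14, edgeR adjusted p = 0.67), and its Lysm-Cre; Ampkα1fl/fl libraries spread more widely than its controls.

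Among the adaptors, *Ticam2*, the bridge between TLR4 and TRIF, had the lowest fold of the 10 genes, with 121, 117 and 141 reads in controls and 80, 69 and 56 in Lysm-Cre; Ampkα1fl/fl tissue. Each Lysm-Cre; Ampkα1fl/fl library lay below each control, and the fitted level was 0.533 of the control level (log2 fold change −0.91, SE 0.17, 95% interval −1.32 to −0.50). The edgeR adjusted p was 0.0758, which misses the threshold, and the DESeq2 adjusted p was 0.0102, which passes it. Over all alternatives the adjusted p of *Ticam2* ran from 0.0102 to 0.693, and its log2 fold change from −1.02 to −0.58.

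*Ticam1*, which encodes TRIF itself, had 377, 339 and 472 reads in controls and 442, 417 and 486 in Lysm-Cre; Ampkα1fl/fl tissue, with overlap (0.16, SE 0.14, edgeR adjusted p = 0.661). *Myd88*, the adaptor shared by most Toll-like receptors, had 877, 869 and 742 reads against 917, 861 and 803 (0.03, SE 0.08, 95% interval −0.15 to 0.22, edgeR adjusted p = 0.89). Its groups overlapped.

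Per transcript length, *Myd88* was the most abundant of the 10 genes in both groups, at 55.2 ± 3.9 TPM in controls and 56.9 ± 4.01 TPM in Lysm-Cre; Ampkα1fl/fl tissue (SD, n = 3). In controls it was followed by *Tlr2* (27.2 TPM), *Cd14* (20.8), *Ticam1* (17.03), *Wdfy1* (13.5), *Tlr4* (8.60), *Tlr7* (8.23), *Tlr3* (5.41), *Ticam2* (4.62) and *Tlr9* (4.11). Neighbours in this order that overlapped across libraries were *Cd14* with *Ticam1*, *Ticam1* with *Wdfy1*, *Tlr4* with *Tlr7*, *Tlr3* with *Ticam2*, and *Ticam2* with *Tlr9*. In Lysm-Cre; Ampkα1fl/fl tissue *Wdfy1* moved to the second place (28.3 ± 3.1 TPM), above *Tlr2* (22.3 ± 1.43 TPM) with no overlap, and *Ticam2* to the last (2.47 ± 0.422 TPM). The overlapping neighbours there were *Tlr4* with *Tlr7* and *Tlr3* with *Tlr9*.

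**Figure D4:**
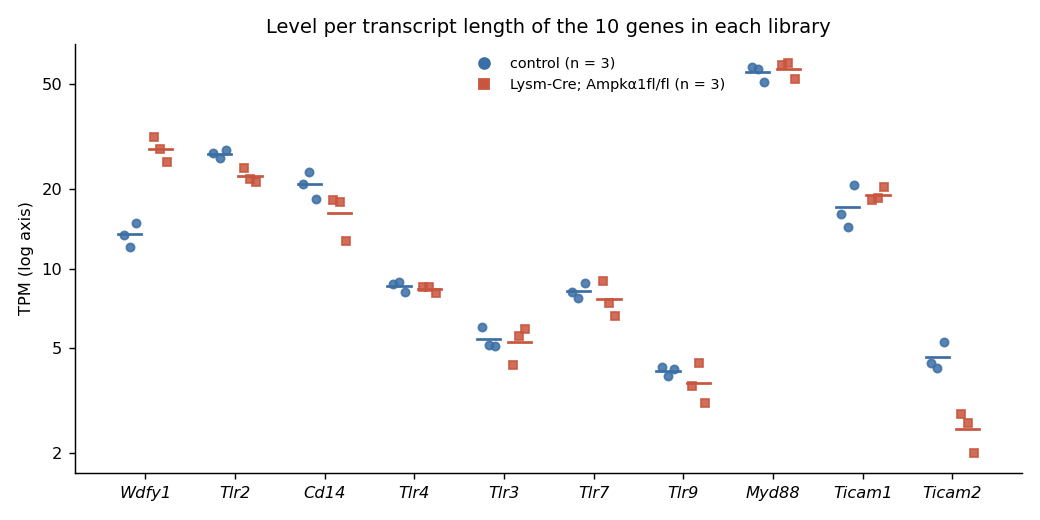
Level of each gene in TPM on a log axis, per library (points) with the mean of each group (lines). *Wdfy1* lies at 12.11 to 14.88 TPM in controls and 25.26 to 31.46 TPM in Lysm-Cre; Ampkα1fl/fl tissue, and most of the other genes lie at like levels in both groups.

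Of 30 transcript models of the 10 genes, 22 passed the filter on low counts, and 17 were at 0 in some library. The 6 genes *Tlr4*, *Tlr9*, *Myd88*, *Ticam1*, *Ticam2* and *Cd14* have 1 model each in the table, so their transcript values equal their gene values. Over all transcripts, edgeR called 1 of 35819 (0.00279%), that of *Lyz2*. Groups did not overlap for 13.8% of transcripts. In *Tlr3* the total was alike in both groups, while among its 8 models the share of NM_126166 did not overlap between them. The curated model NM_126166 was assigned 31.96, 23.99 and 0 estimated reads in controls and 95.33, 127.02 and 95.39 in Lysm-Cre; Ampkα1fl/fl tissue, 8.84% ± 7.71 and 53.3% ± 11 of the gene (SD, n = 3). Its groups did not overlap, but the transcript fold missed the threshold (log2 fold change 2.49, SE 1.28, edgeR adjusted p = 0.943). Of 10449 genes with more than 1 transcript, 59 (0.565%, *Tlr3* included) had a non-overlapping shift in share of at least its 44.4 percentage points. Each of the 8 models of *Tlr3* was at 0 in at least 1 library. Shares also varied within a group, as for NM_001357316, at 0%, 20.1% and 42.3% of the gene in control replicates 1 to 3. For *Tlr2*, NM_011905 held 92.6% of the reads in controls and 95.8% in Lysm-Cre; Ampkα1fl/fl tissue, and for *Tlr7* the largest shares were those of NM_133211, at 41.5% and 43.4%.

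Other genes of the pathway were read from lists of receptors, accessory proteins, kinases, transcription factors, inhibitors, target genes, matrix ligands and nucleic acid sensors. Of 84 tested, edgeR called 0, against 0.898% of all genes tested, which is also the background for each list below. At an unadjusted p under 0.05 there were 15 (10 higher and 5 lower, against 5.97% and 8.55% of all genes). Of the 84, 37 had a log2 fold change above 0 and 47 below. DESeq2 called 9 of 92, against 3.87% of all genes. These were *Bgn*, *Cxcl10*, *Ddx58*, *Fn1*, *Ifit1*, *Ifit3* and *Isg15*, which were higher, and *Lbp* and *Ly86*, which were lower. Without Lysm-Cre; Ampkα1fl/fl replicate 2, edgeR called 8 of 85, against 276 of 14425 genes in all. All 8 were higher (*Cxcl10*, *Ddx58*, *Ifih1*, *Ifit1*, *Ifit2*, *Ifit3*, *Isg15* and *Rsad2*). Without Lysm-Cre; Ampkα1fl/fl replicate 3 it called 1 of 87, *Lbp*, which was lower, against 60 of 14393 genes in all. In 12 of the 84 all Lysm-Cre; Ampkα1fl/fl libraries lay above all controls and in 4 all lay below, against 8.94% and 11.4% of all genes.

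Among 8 receptor accessory proteins, 7 had a log2 fold change below 0, the list's median was −0.16, and 0 were called. *Lbp*, the lipopolysaccharide-binding protein that loads CD14, had 1331, 1375 and 1318 reads in controls and 815, 802 and 428 in Lysm-Cre; Ampkα1fl/fl tissue, with no overlap (log2 fold change −1.0, SE 0.22, edgeR adjusted p = 0.107). *Ly86*, which encodes MD-1, the partner of CD180, had 346, 384 and 432 reads against 290, 260 and 235, again with no overlap (−0.59, SE 0.12, edgeR adjusted p = 0.0878). *Cd180* itself had a log2 fold change of 0.01 (SE 0.18, edgeR adjusted p = 0.992), a sign that turned under upper-quartile scaling.

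None of the remaining receptors and signalling genes was called. Of the 7 other Toll-like receptors, 5 were tested and 0 called, with *Tlr13* highest (0.33, SE 0.19, edgeR adjusted p = 0.496) and *Tlr1* lowest (−0.09, SE 0.16, edgeR adjusted p = 0.856). The other TIR adaptors gave 0 calls among 3: *Pik3ap1* (−0.17, SE 0.09, edgeR adjusted p = 0.455), *Tirap*, the bridge of MYD88 to TLR2 and TLR4 (0.00, SE 0.1, edgeR adjusted p = 0.993), and *Sarm1*, with at most 16 reads in any library (−0.47, SE 0.36, edgeR adjusted p = 0.612). For the 17 kinases and ligases, log2 fold changes ran only from −0.13 to 0.11, with 0 called. *Ikbkg*, the regulatory subunit of the IκB kinase, had the lowest p on the higher side (0.11, SE 0.06, edgeR adjusted p = 0.507) and *Ube2n*, a ubiquitin-conjugating enzyme, on the lower side (−0.13, SE 0.08, edgeR adjusted p = 0.545). Among 12 inhibitors 0 were called, with *Trafd1* (0.18, SE 0.07, edgeR adjusted p = 0.293) and *Sigirr* (−0.25, SE 0.16, edgeR adjusted p = 0.548) having the lowest p in each direction.

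The targets of the 2 signalling arms had different patterns across libraries. The NF-κB arm gave 0 calls among 8 targets tested of 14, with a median log2 fold change of −0.01. *Tnf*, for example, had 24, 25 and 13 reads in controls and 19, 27 and 17 in Lysm-Cre; Ampkα1fl/fl tissue, and *Il6* at most 12 reads in any library. *Nos2* (0.30, SE 0.23, edgeR adjusted p = 0.614) and *Ccl3* (−0.58, SE 0.38, edgeR adjusted p = 0.541) had the lowest p in each direction.

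The list of TRIF and IRF3 targets had a median log2 fold change of 1.15 over 7 tested of 8. Of these 7, 6 were on the higher side and 0 were called. *Ifnb1*, the other listed target, had no entry among the genes measured. The part of TRIF signalling in these values was not tested. *Cxcl10*, a chemokine of interferon responses, had 80, 62 and 43 reads in controls and 251, 123 and 234 in Lysm-Cre; Ampkα1fl/fl tissue (log2 fold change 1.70, SE 0.32, edgeR adjusted p = 0.0757). *Ifit1*, an interferon-induced gene, had 150, 160 and 144 reads against 529, 156 and 522. High values were in Lysm-Cre; Ampkα1fl/fl replicates 1 and 3, while replicate 2 was at control levels for *Ifit1* and *Ifit2* and, at 63 reads against 98 to 103, below them for *Rsad2*. For *Cxcl10*, *Isg15* and *Ifit3*, replicate 2 lay above every control, at 2.0, 1.35 and 1.29 times the control mean, but below replicates 1 and 3. *Wdfy1*, by contrast, stood at 2.4, 2.28 and 2.17 times the control mean in Lysm-Cre; Ampkα1fl/fl replicates 1, 2 and 3, whereas *Ifit1* stood at 3.37, 1.03 and 3.44 times. *Ccl5* was the only target on the lower side (−0.43, SE 0.38, edgeR adjusted p = 0.669).

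**Figure D5:**
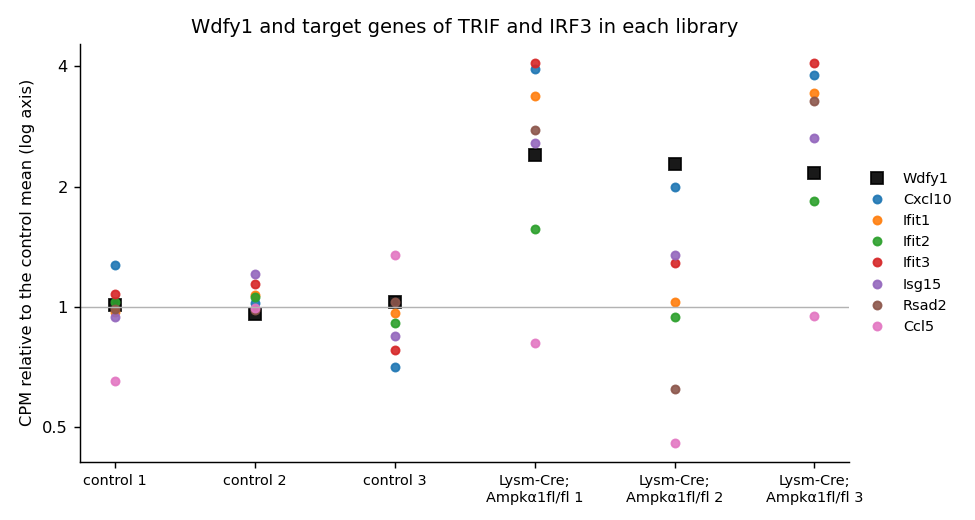
Level in each library relative to the control mean (CPM ratio, log axis) for *Wdfy1* (black squares) and 7 target genes of TRIF and IRF3 (circles). In Lysm-Cre; Ampkα1fl/fl replicate 2, *Wdfy1* is at 2.28 times the control mean while the targets run from *Ccl5* at 0.457 and *Rsad2* at 0.623 through *Ifit1* at 1.03 to *Cxcl10* at 2.0.

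Of the transcription factors, 0 of 8 were called. *Irf7*, itself induced by interferon, had 304, 399 and 550 reads in controls and 803, 434 and 763 in Lysm-Cre; Ampkα1fl/fl tissue, with overlap through replicate 2 (log2 fold change 0.65, SE 0.29, edgeR adjusted p = 0.371). The mean log2 CPM of the skeletal muscle markers was 3.61, 5.02 and 7.7 in controls and 7.98, 5.86 and 9.29 in Lysm-Cre; Ampkα1fl/fl tissue, and with it as a covariate the log2 fold change of *Irf7* was 0.14. With the same covariate the log2 fold change was 1.64 for *Cxcl10* (1.70 without it) and 0.41 for *Ddx58* (0.53 without it). For *Ccl5* it was −1.03 (−0.43 without it). The part of muscle content in these differences was not tested. *Irf3*, the factor downstream of TRIF, had 648, 636 and 606 reads against 634, 619 and 603, and *Irf5* had the lowest p on the lower side (−0.13, SE 0.12, edgeR adjusted p = 0.674). Of 7 other nucleic acid sensors tested, 0 were called. *Ddx58*, which encodes RIG-I, a sensor of viral RNA, had 743, 762 and 696 reads against 1211, 855 and 1161, with no overlap (0.53, SE 0.12, edgeR adjusted p = 0.119). *Cgas*, a DNA sensor, was on the lower side (−0.57, SE 0.2, edgeR adjusted p = 0.257).

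Matrix proteins and alarmins that can act on TLR2 and TLR4 ranged widely in level, from matrix genes such as *Fn1* and *Bgn* to the alarmin *S100a8*, with 8 to 161 reads. *Fn1*, fibronectin, had 165855, 139964 and 147813 reads in controls and 236808, 180305 and 194515 in Lysm-Cre; Ampkα1fl/fl tissue, with no overlap (log2 fold change 0.41, SE 0.1, edgeR adjusted p = 0.126). *Vcan*, the proteoglycan versican, was on the lower side with overlap (−0.63, SE 0.2, edgeR adjusted p = 0.203). Of the 9 genes of the list 0 were called, with 5 above 0 and 4 below.

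Macrophage markers were mostly on the lower side too. Of 12 macrophage markers 9 had a log2 fold change below 0, and edgeR called 0, against 0.898% of all genes tested. On the lower side 7 did not overlap, against 11.4% of all genes, and on the higher side 1 (*Mertk*), against 8.94%. The summed level of the 12 markers was 1155 to 1200 CPM in controls and 745.1 to 964.1 CPM in Lysm-Cre; Ampkα1fl/fl tissue, and every marker was detected in every library. *Adgre1*, which encodes F4/80, had 1841, 1876 and 1872 reads against 1443, 1366 and 1137 (log2 fold change −0.52, SE 0.08, edgeR adjusted p = 0.0508), while *Cd68* was on the higher side (0.25, SE 0.14, edgeR adjusted p = 0.459). With the mean level of these markers as a covariate, the log2 fold change of *Wdfy1* was 1.28 and those of *Cd14* and *Tlr7* were 0.04 and 0.13. That of *Ticam2* was −0.58 (edgeR adjusted p = 0.693). The covariate itself did not overlap between the groups, so this fit cannot separate macrophage content from group. B cell markers were low, with a summed level of 1.514 to 4.152 CPM. Of 4 markers of plasmacytoid dendritic cells, *Siglech* had no more than 12 reads and *Klk1* no more than 2, whereas *Tcf4* (0.20, SE 0.09, edgeR adjusted p = 0.368) and *Bst2* (0.26, SE 0.21, edgeR adjusted p = 0.636), which other cells also express, were abundant.

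Erythrocyte markers were the one marker list with calls. All 7, hemoglobin genes among them, were lower with no overlap, against 11.4% of all genes tested. Of the 7, edgeR called 6, against 0.568% of all genes called lower, and the list's median log2 fold change was −1.59. With replicate numbers fitted as a block, only *Hbb-bs* stayed called (edgeR adjusted p = 0.0466). The summed level of the 7 markers was 1997 to 2973 CPM in controls and 675.9 to 982.8 CPM in Lysm-Cre; Ampkα1fl/fl tissue. The part of cell composition in the values of *Tlr2*, *Ticam2*, *Cd14*, *Lbp* and *Ly86* was not tested.

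By likeness of log2 CPM over the 6 libraries, the genes closest to *Wdfy1* were *Mtfr1l* (Pearson r = 0.996), *Tmem154* (0.995), *Chpf* (0.994), *Gpx3* (0.993) and *Stk32b* (0.992). The points are 6 libraries in 2 groups, so any gene with a stable difference between the groups ranks high on this measure. These genes were thus picked through the contrast itself, so their p-values and calls below are descriptions and not tests of it. *Gpx3*, a secreted glutathione peroxidase, rose from 2360, 1947 and 2071 reads to 4422, 4307 and 4095 (log2 fold change 0.99, SE 0.07, edgeR adjusted p = 0.00626). *Stk32b*, a kinase gene, rose from 58, 55 and 61 reads to 241, 170 and 169 (1.71, SE 0.17, edgeR adjusted p = 0.0134). *Tmem154* (1.05, SE 0.1, edgeR adjusted p = 0.0134) and *Chpf*, a chondroitin-polymerizing factor (0.35, SE 0.05, edgeR adjusted p = 0.0412), also rose, but in the fit blocked on replicate numbers their edgeR adjusted p was 0.0503 and 0.0842. Leaving out 1 library at a time, the call of *Gpx3* held in each of the 6 fits, that of *Stk32b* was lost without any 1 control or Lysm-Cre; Ampkα1fl/fl replicate 1, that of *Tmem154* without control replicate 1 or 2 or Lysm-Cre; Ampkα1fl/fl replicate 1, and that of *Chpf* was kept without Lysm-Cre; Ampkα1fl/fl replicate 2 alone. *Mtfr1l* differed by 0.11 (SE 0.04, edgeR adjusted p = 0.323).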

How the data were processed

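RNA was extracted from repair tissue of 3 control and 3 Lysm-Cre; Ampkα1fl/fl mice and sequenced on the BGISEQ platform. The authors deposited, for each of 65053 RefSeq transcripts and each library, an estimated count of reads and a TPM value scaled to transcript length. The genome build was GRCm38.p6 per the submitters' processing notes, and the aligner and counting tool were not given in the sources used here. The deposited FPKM values, the normalized counts (a signal that the authors scaled by 1 factor per library before deposit) and the group averages were not used.

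Estimated counts were summed per NCBI Gene identifier and rounded, giving 18099 genes, of which 18049 (99.72%) matched a symbol in RefSeq. Genes were tested with edgeR 4.0.16 in R 4.3.3 (TMM, filterByExpr, quasi-likelihood F test, Benjamini-Hochberg over all genes tested, threshold 0.05). Exact permutation tests used log2(CPM + 0.5) and were two-sided. Fold changes are Lysm-Cre; Ampkα1fl/fl over control. Transcripts were tested in the same way. Alternatives were DESeq2 1.42.0, limma 3.58.1 on log2(TPM + 0.5), other scalings and filters, marker levels as covariates, the replicate number as a block and leaving out each library, with curated transcripts alone added after the data were seen. Deviations of same-numbered libraries had correlations of 0.184, 0.118 and 0.31. The labels do not say what equal numbers share, so the main fit was unpaired. The block was fitted as an alternative only, and its values are given where they change a call. On simulated counts in which 200 of 14261 genes differed by 1 on the log2 scale, the gene test recovered 75.5% with 4.43% false calls. The transcript test on 35819 transcripts recovered 12.5% with 13.8% false calls. In these counts the spread of a gene or transcript followed from its level alone, and tissue content did not shift between libraries. The rates may therefore differ in the real libraries.

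The members and gene lists were chosen with earlier results of these data known. Beside the members, the named genes are all WDFY and substrain genes, called genes or those with the lowest p in each direction of every other pathway list (not of the cell type marker lists), the 5 most like *Wdfy1*, the nearest neighbours, *Prkaa1* and *Lyz2*, and a few examples (*Tnf*, *Il6*, *Irf3*, *Ifit1*, *Rsad2*, *Lbp*, *Sarm1*, *Adgre1*, *Cd68* and *Mertk* among them) outside that rule. Exon sequences and models came from GENCODE vM21 (GRCm38). Protein sequences were not used here.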

Additional observations from a re-analysis of the deposited data

How the results depend on the processing

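With 3 libraries a group, p-values measure the spread between these mice, and no exact test of 3 against 3 can go below 0.1. Reads split over transcript models are estimates, and models with shared exons trade reads, so transcript values are less certain than gene values. The macrophage covariate, a mean log2 CPM, was 5.96 to 5.99 in controls and 5.4 to 5.77 in Lysm-Cre; Ampkα1fl/fl tissue, so it shares most of the contrast with the groups.

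The number of genes called (128) was 686 with DESeq2, 47 with the replicate block, 73 with the skeletal muscle covariate, 1 with the macrophage covariate, 44 with curated transcripts only, and 8 to 276 with 1 library left out (276 without Lysm-Cre; Ampkα1fl/fl replicate 2, 8 without control replicate 2). Pathway genes called (0) were 9 with DESeq2 and 0 to 8 with 1 library left out. The 1 transcript called was lost (0) with the replicate block. The log2 fold change of *Wdfy1* was 1.28 with the macrophage covariate, 1.04 on log2(TPM + 0.5) and 2.20 with curated transcripts only, and that of *Ticam2* was called by DESeq2 alone (−0.90). The block changed no call among the 9 other members.

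None of the values whose sign turned was called in the edgeR fit, and the cause was not tested. With the macrophage covariate they turned for *Tlr7* (0.13), *Tlr9* (0.12), *Cd14* (0.04), *Ticam1* (−0.05), *Tlr1* (0.35), *Cd180* (−0.02), *Pik3ap1* (0.01), *Irf5* (0.13), *Nos2* (−0.24), *Wdfy2* (0.04), *Wdfy3* (0), *Entpd4* (3.69) and *Cyfip2* (0.18). With the skeletal muscle covariate they turned for *Tlr3* (0.01), *Ticam1* (−0.03), *Cd180* (−0.2), *Cyfip2* (0.12) and *Mrpl44* (0). With curated transcripts only they turned for *Tlr1* (0.91), *Trafd1* (0) and *Ide* (−0.36), and with upper-quartile scaling or the block for *Cd180* (0 and −0.01) and *Tirap* (0 and 0). Leaving out 1 library, the log2 fold change ran from −0.13 to 0.10 for *Tlr3*, −0.09 to 0.01 for *Tlr4*, −0.03 to 0.08 for *Myd88*, −0.19 to 0.06 for *Tlr1*, −0.16 to 0.15 for *Cd180*, −0.10 to 0.06 for *Tirap*, −0.09 to 0.01 for *Wdfy3* and −0.25 to 0.11 for *Cyfip2*.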
